A study of Mus musculus with 3 samples.

Results

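The genes described here encode the laminins of fibroblasts and the proteins that tie laminin into the basement membrane. They are the laminin alpha chain genes Lama2, Lama4 and Lama5, the beta chain genes Lamb1 and Lamb2, the gamma chain gene Lamc1, the nidogen genes Nid1 and Nid2, and the proteoglycan genes Hspg2 (perlecan) and Agrn (agrin). They were chosen by name, with earlier results of these data known. All 10 were found among the 19938 genes named on the array, each with 1 probe set. All 10 passed the level filter, which kept the 11808 genes that reached the median signal, 6.63 on the log2 scale, on 1 or more arrays. None of the 10 depended on a single array to pass.

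RNA came from 3 cultured lines of mouse forestomach fibroblasts and was measured with 1 Affymetrix Mouse Gene 1.0 ST array for each line, a design that reads each transcript with probes spread over its exons. The forestomach is the squamous-lined part of the rodent stomach. The cells were FSP1-positive, FSP1 being the fibroblast protein encoded by S100a4, and all 3 lines were grown in the same serum-containing medium to subconfluency. The first line was wild type and came from normal forestomach. The second, labelled TGFBR2cKO and written here as Tgfbr2 cKO, carried a conditional knockout (cKO) of the gene for the type II TGF-beta receptor and was derived from forestomach squamous cell carcinoma. The third, written here as Tgfbr2/Smad4 cKO, carried conditional knockouts of that gene and of Smad4, the SMAD shared by TGF-beta and BMP signaling, and came from normal forestomach. Mice of mixed C57BL6 and BALBc background and of either sex were used, per the labels, which assign neither to a line. The sources used here name no driver of the deletions and no ages. Genotype and tissue of origin therefore cannot be told apart when the Tgfbr2 cKO line is set beside either other line. Sex-linked genes, given below, also set the Tgfbr2/Smad4 cKO line apart from both others, so sex adds to this. With 1 array per line there is no spread between replicates, no test of any difference and no p-value. A level is a log2 signal, a difference is 1 array minus another on that scale, and a gene is called if that difference was at least 2-fold. Sets of 3 levels are given in the order wild type, Tgfbr2 cKO, Tgfbr2/Smad4 cKO.

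A basement membrane is a thin sheet of matrix that underlies epithelium and endothelium and surrounds muscle, fat and Schwann cells. Each laminin is a trimer of 1 alpha, 1 beta and 1 gamma chain, and the alpha chain carries the globular domains that bind integrins and dystroglycan on the cell surface. Many laminin trimers, though not all, polymerise into one network and type IV collagen into another. Nidogens, which bind the laminin gamma 1 chain, and perlecan connect the networks. Fibroblasts and other stromal cells supply part of these proteins to the basement membrane of the neighbouring epithelium.

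Lama2 was the 1 gene of the 10 that was at least 2-fold different between any pair of arrays, and it was lower in the Tgfbr2/Smad4 cKO array. Its promoter is shown with those of Lama5 and Lamb1, the members with the largest positive differences from wild type in that array, so that the sequences upstream of genes on opposite sides can be compared. Each line holds the 250 bases before the RefSeq start, 5′ to 3′ on the strand of the gene, and capitals mark the GC box GGGCGG or its reverse complement. The Lama2 window is chr10:27616943-27617192 on the minus strand of build GRCm38.p6, the Lama5 window is chr2:180225860-180226109 on the minus strand, and the Lamb1 window is chr12:31265043-31265292 on the plus strand.
Lama2: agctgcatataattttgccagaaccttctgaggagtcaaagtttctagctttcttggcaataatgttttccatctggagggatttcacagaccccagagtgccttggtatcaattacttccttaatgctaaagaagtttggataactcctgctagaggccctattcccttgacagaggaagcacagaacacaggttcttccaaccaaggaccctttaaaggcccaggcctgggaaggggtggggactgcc
Lama5: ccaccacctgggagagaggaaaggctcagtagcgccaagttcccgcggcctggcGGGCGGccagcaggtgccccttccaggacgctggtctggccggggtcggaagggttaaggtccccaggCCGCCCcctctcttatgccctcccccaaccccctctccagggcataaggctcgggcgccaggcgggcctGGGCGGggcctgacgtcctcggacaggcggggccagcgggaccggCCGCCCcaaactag
Lamb1: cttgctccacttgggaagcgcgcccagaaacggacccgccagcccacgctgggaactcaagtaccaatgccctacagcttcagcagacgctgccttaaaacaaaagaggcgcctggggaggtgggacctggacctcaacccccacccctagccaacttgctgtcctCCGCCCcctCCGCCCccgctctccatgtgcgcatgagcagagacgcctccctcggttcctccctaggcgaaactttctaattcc

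RefSeq promoter windows were found for 7 of the 10 genes, leaving out Lama4, Lamc1 and Nid2. The Lama2 window held 0 CpG dinucleotides and 0 GC boxes, with a GC content of 47.2%. The Lama5 window held 19 CpG dinucleotides and 4 GC boxes at 72.4% GC, and the Lamb1 window 14 CpG dinucleotides and 2 GC boxes at 62% GC. Among 32851 RefSeq windows of the same length the medians were 6 CpG dinucleotides and 52.4% GC, and 32.7% held a GC box. The windows of Nid1, Hspg2 and Agrn held 1, 5 and 12 GC boxes, counting the first of 2 windows for Agrn. Lamb2, with 3 CpG dinucleotides and 0 GC boxes, was like Lama2 in its promoter but not in its signal, as its values below show. The letters CAGAC, the core bound by SMAD proteins, occurred 1 time each in the windows of Lama2, Lama5 and Lamb1, 2 times in that of Lamb2 and 0 times in those of Nid1, Hspg2 and Agrn, against 42.2% of all windows with at least 1 match. CCAAT occurred 1 time each in the windows of Lamb1 and Nid1 and in 33.8% of all windows. The AP-1 motif TGANTCA and the TATA motif TATAAA occurred in 0 of the 7 windows and in 6.75% and 12.4% of all windows. All motifs were searched on both strands, and matches of different motifs were counted separately where they overlapped. A match describes these letters only and shows no binding.

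The alpha chain decides which receptors a laminin can bind, and the 3 alpha chain genes did not move alike. Lama2, which encodes the alpha 2 chain typical of muscle and nerve basement membranes, read 9.72 on the log2 scale in wild type, 9.82 in Tgfbr2 cKO and 8.17 in Tgfbr2/Smad4 cKO. The first 2 arrays were close together and the Tgfbr2/Smad4 cKO array lay far below both. Lama2 was 2.93-fold lower there than in wild type, a log2 difference of -1.55, and 3.13-fold lower than in the Tgfbr2 cKO array, a difference of -1.65. Of the 11808 genes tested, 105 had a lower difference from wild type and 85 a lower difference from Tgfbr2 cKO.

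Lama5, which encodes the alpha 5 chain found in most epithelial and endothelial basement membranes, lay on the other side. Its level was 8.97 in wild type, 8.82 in Tgfbr2 cKO and 9.70 in Tgfbr2/Smad4 cKO. The Tgfbr2/Smad4 cKO array was the highest, with a difference of 0.73 from wild type (1.65-fold) and of 0.88 from Tgfbr2 cKO (1.84-fold). Both stayed under 2-fold, and 2.21% of genes tested had a larger difference from wild type. The differences of Lama5 and Lama2 from wild type in this array thus lay 2.28 apart on the log2 scale.

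Lama4, which encodes the alpha 4 chain made by endothelial, mesenchymal and fat cells, was the member with the largest difference in the Tgfbr2 cKO array. Its level was 9.08 in wild type, 9.73 in Tgfbr2 cKO and 9.52 in Tgfbr2/Smad4 cKO. Both knockout arrays were above wild type, by 0.65 (1.57-fold) and 0.44 (1.35-fold), and the difference between them was -0.21. Only 16 of the 11808 genes tested had a larger difference between the Tgfbr2 cKO and wild-type arrays. This set Lama4 apart from Lama5, whose difference in the same pair was -0.15, and from Lama2, whose difference was 0.10.

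**Figure D1:**
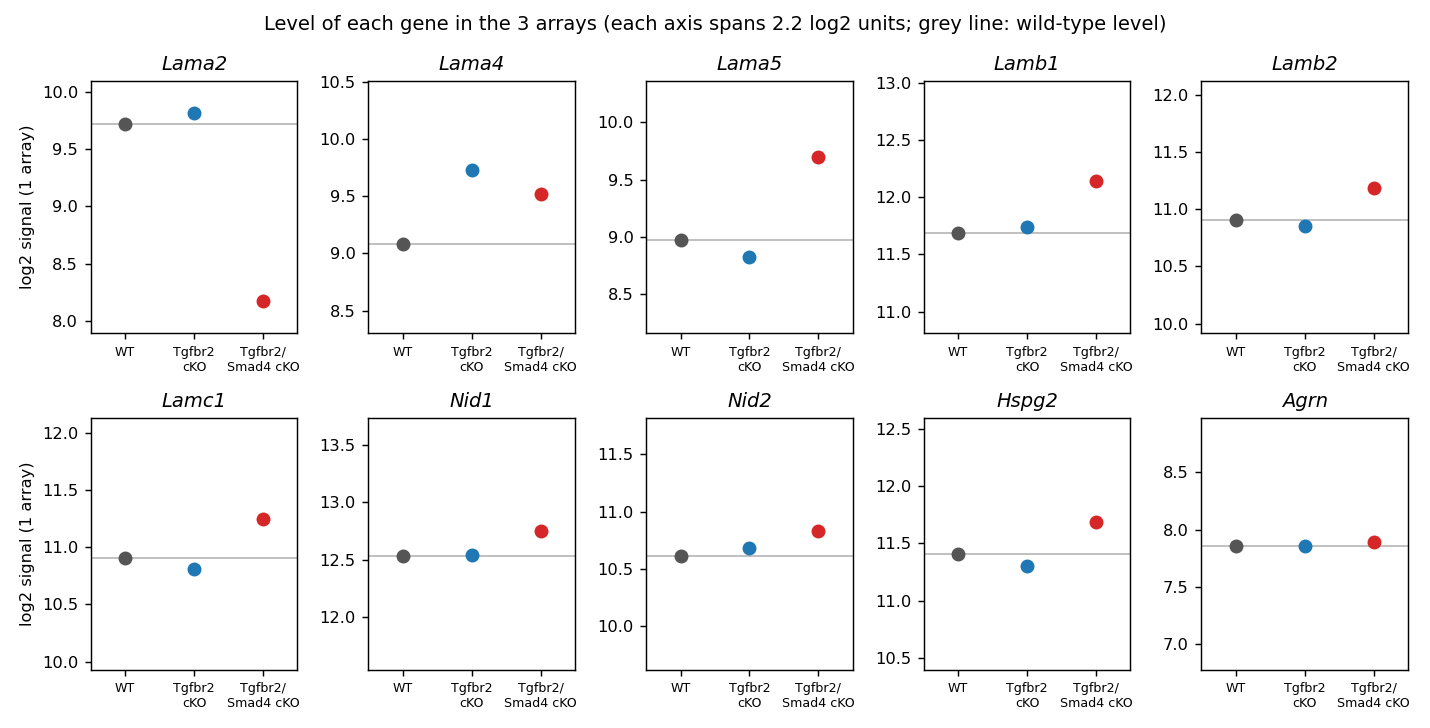
Log2 signal of each of the 10 genes, one panel per gene, in the wild-type (grey), Tgfbr2 cKO (blue) and Tgfbr2/Smad4 cKO (red) arrays, 1 array per point, with a grey line at the wild-type level and the same span on every axis. Lama2 lies lowest in the Tgfbr2/Smad4 cKO array at 8.17, Lama4 is highest in the Tgfbr2 cKO array at 9.73, and the 3 values of Agrn lie almost level.

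The beta and gamma chains that join these alpha chains were higher together in the Tgfbr2/Smad4 cKO array and close to wild type in the Tgfbr2 cKO array. Lamb1, the gene of the widely expressed beta 1 chain, had levels of 11.69, 11.74 and 12.14, so that the last lay 0.45 above wild type (1.36-fold). Lamb2, the gene of the beta 2 chain found at synapses and in the kidney filter, had levels of 10.90, 10.85 and 11.18, with a difference of 0.28 (1.22-fold) for the last. Lamc1, whose gamma 1 chain is shared by most laminins and binds nidogen, had levels of 10.91, 10.81 and 11.25, with a difference of 0.34 (1.27-fold).

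None of these 3 genes reached 1.5-fold in any pair. In the Tgfbr2 cKO array their differences from wild type were 0.05 for Lamb1, -0.05 for Lamb2 and -0.10 for Lamc1. The differences of Lamb1 and Lamb2 from wild type in the Tgfbr2/Smad4 cKO array lay 0.17 apart, whereas those of Lamc1 and Lama2 lay 1.89 apart. The gene of the common gamma chain and that of the alpha 2 chain thus differed in opposite directions between these arrays.

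The nidogens link the laminin and collagen networks and showed the same pattern on a smaller scale. Nid1 had levels of 12.53 in wild type, 12.54 in Tgfbr2 cKO and 12.75 in Tgfbr2/Smad4 cKO. Nid2 had levels of 10.61, 10.68 and 10.83. Both were highest in the Tgfbr2/Smad4 cKO array, by 0.22 for Nid1 and 0.22 for Nid2 over wild type (1.16-fold each), and 11.2% and 11.3% of genes tested had larger differences. Their differences from wild type in the Tgfbr2 cKO array were 0.01 and 0.07.

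The proteoglycans carry heparan sulfate chains that hold growth factors, and the 2 genes were unlike. Hspg2, the gene of perlecan, had levels of 11.41 in wild type, 11.30 in Tgfbr2 cKO and 11.69 in Tgfbr2/Smad4 cKO. Its difference from wild type was -0.10 in Tgfbr2 cKO and 0.28 (1.22-fold) in Tgfbr2/Smad4 cKO, the same order over the arrays as Lamb2, Lamc1 and Lama5. Agrn, the gene of agrin, which organises acetylcholine receptors at the nerve-muscle synapse and also lies in other basement membranes, had levels of 7.86, 7.86 and 7.89. Its values were exactly equal in the first 2 arrays and 0.03 higher in the last.

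**Figure D2:**
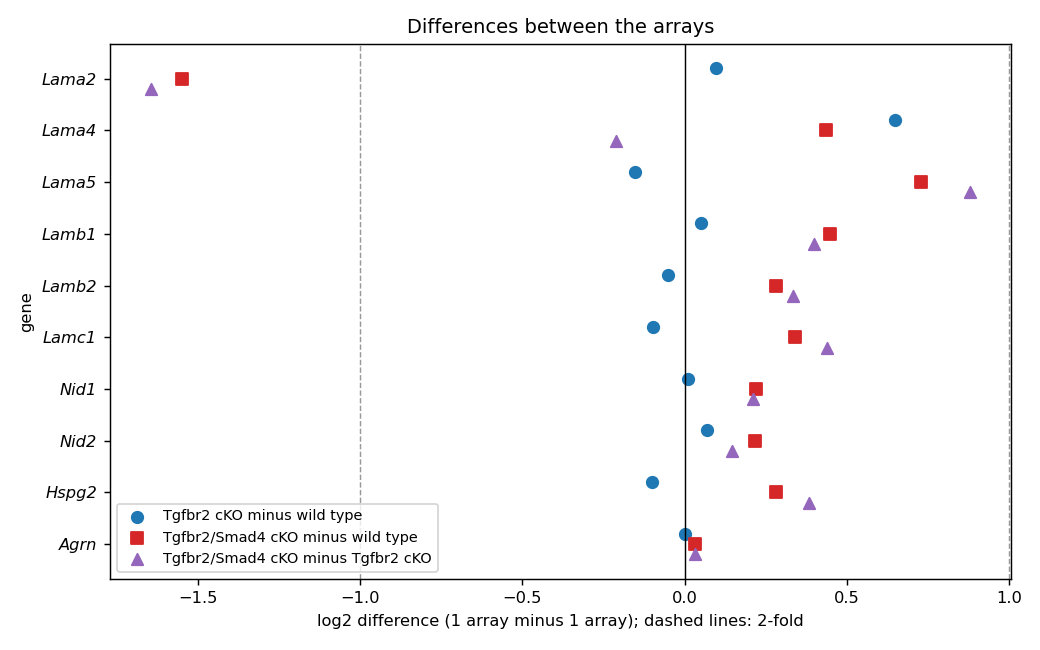
Log2 difference of each of the 10 genes for Tgfbr2 cKO minus wild type (circles), Tgfbr2/Smad4 cKO minus wild type (squares) and Tgfbr2/Smad4 cKO minus Tgfbr2 cKO (triangles), each from 1 array minus 1 array, with dashed lines at 2-fold. Lama2 lies beyond the 2-fold line at -1.55 and -1.65 in the comparisons with Tgfbr2/Smad4 cKO, and no other point crosses such a line.

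Counted over the 10 genes, Tgfbr2 cKO minus wild type had 5 genes higher, 4 lower and 1 equal, with a median difference of 0.005 and 0 genes at least 2-fold different. Over all genes tested 25.8% were higher and 19% lower in this pair, 55.1% were exactly equal, the median was 0 and 0.0339% were at least 2-fold different. At a size of 1.5-fold, Lama4 was the 1 gene called, against 0.373% of all genes.

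Tgfbr2/Smad4 cKO minus wild type had 9 of the 10 genes higher and 1 lower, with a median difference of 0.28. Over all genes tested 31.1% were higher, 32.2% lower and 36.7% exactly equal, and the median was 0. At least 2-fold different was 1 of the 10, Lama2, against 3.4% of all genes, and at least 1.5-fold different were Lama2 and Lama5 against 8.44%. Without Lama2 the median of the other 9 was also 0.28. The smallest positive difference among them was that of Agrn, 0.03.

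Tgfbr2/Smad4 cKO minus Tgfbr2 cKO had 8 genes higher and 2 lower, Lama2 and Lama4, with a median of 0.27. Over all genes tested 30.2% were higher, 33.7% lower and 36.1% equal, the median was 0, and 3.57% were at least 2-fold different, beside 1 of the 10, Lama2. At 1.5-fold Lama2 and Lama5 were called, against 9.01%. The last 2 comparisons share the Tgfbr2/Smad4 cKO array and the first 2 share the wild-type array, so their values are not separate evidence. In all, 8 of the 10 genes were highest in the Tgfbr2/Smad4 cKO array, against 28.3% of all genes tested. The all-gene shares of higher and lower depend on the exactly equal values. With each array centred on its median they were 30.9% higher and 69.1% lower for Tgfbr2/Smad4 cKO minus wild type, and with quantile normalization 67.7% and 32.1%, while the 10 genes stayed at 9 higher and 1 lower. Among the 4419 genes whose 3 values all differed, 44.6% were higher and 55.4% lower in that pair, beside 8 and 1 of the 9 members of this kind, all but Agrn.

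**Figure D3:**
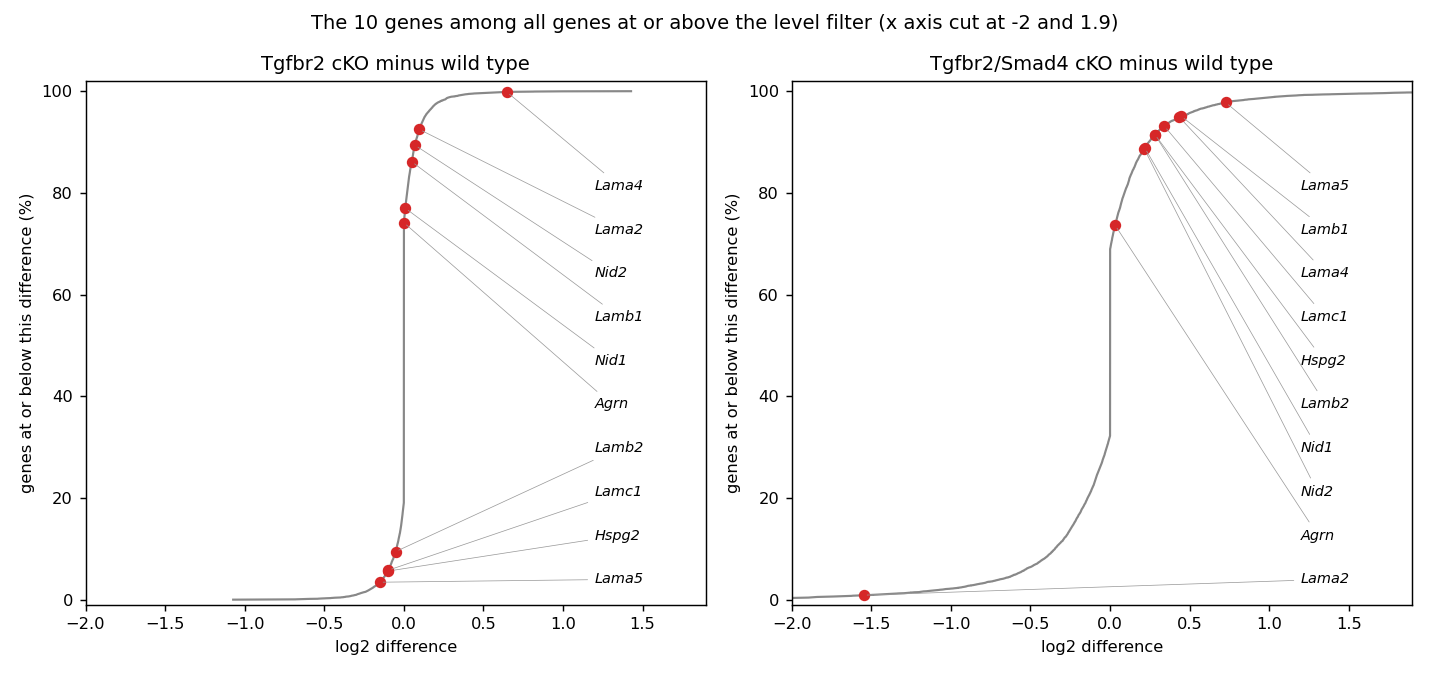
Cumulative share of the 11808 genes tested (percent, grey curve) against the log2 difference, for Tgfbr2 cKO minus wild type (left) and Tgfbr2/Smad4 cKO minus wild type (right), with the 10 genes as red points. The vertical step at 0 is the 55.1% and 36.7% of genes with exactly equal values, Lama4 is near the top of the left curve, and on the right Lama2 is near the bottom while the other 9 lie above the step.

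Genes whose values over the 3 arrays were most like those of the 3 members with the largest range were found by the larger of the 2 gaps in the differences from wild type, among 10523 genes with 1 probe set. With 3 arrays many genes can share a pattern, and likeness here describes values only. Foxf2, a forkhead transcription factor gene of gut mesenchyme, was closest to Lama2, with a gap of 0.03 and differences of 0.13 in Tgfbr2 cKO and -1.58 in Tgfbr2/Smad4 cKO. Pla2r1, a phospholipase A2 receptor gene, and Sh3kbp1, an endocytic adaptor gene, followed with gaps of 0.05 each. Closest to Lama5 were Wdr35, a gene of ciliary transport, with a gap of 0.003, Sdc1, the gene of the heparan sulfate proteoglycan syndecan 1, with a gap of 0.02, and Dcxr, a carbonyl reductase gene, with a gap of 0.04. Sdc1 had levels of 9.72, 9.57 and 10.42 and also belongs to the receptor list below. The genes nearest to Lama4 lay farther away, with gaps of 0.15 for Sparcl1, the gene of a SPARC-like matrix protein, 0.25 for Sntb1, which encodes a syntrophin of the dystroglycan complex, and 0.28 for Arsi, an arylsulfatase gene.

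The other laminin chain genes on the list had equal values in the 3 lines. Of 5 such genes, 4 had a value and 2, Lama1 and Lamc3, reached the level filter, with levels of 6.69 and 7.20 that were equal in all 3 arrays. Lama3 and Lamb3, chains of the epithelial laminin that anchors keratinocytes and named after their values were seen, were below the filter at 5.79 and 6.54.

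All 10 basement membrane collagen genes on the list reached the level filter, and 0 differed at least 2-fold in any pair. Over all genes tested the share was 0.0339% for Tgfbr2 cKO minus wild type. It was 3.4% for Tgfbr2/Smad4 cKO minus wild type and 3.57% between both knockout arrays, so 0 of 10 is near these shares. In Tgfbr2/Smad4 cKO minus wild type 5 were higher, 1 lower and 4 equal, and the median was 0.01. Over all genes 31.1% were higher and 32.2% lower in that pair. In Tgfbr2 cKO minus wild type 3 were higher, 1 lower and 6 equal, and the median was 0. Col4a5, a type IV collagen chain gene, had levels of 9.98, 9.89 and 10.81, a difference of 0.83 for the last. Col18a1, whose product yields endostatin, had levels of 8.18, 8.51 and 8.68, higher in both knockout arrays as Lama4 was. Col4a1 and Col4a2, the genes of the most widespread type IV collagen and named here after their values were seen, were 0.14 and 0.30 higher in Tgfbr2/Smad4 cKO than in wild type.

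Receptors for laminin and the basement membrane numbered 23 with a value, 22 of them at the level filter. In Tgfbr2/Smad4 cKO minus wild type 7 were higher and 9 lower around a median of 0, and, against 3.4% of all genes tested, 1 was called. That gene was Musk, the muscle kinase through which agrin acts, with levels of 6.16, 6.22 and 7.41 and a difference of 1.25. Musk passed the level filter only through the array in which it was high, and with 32 added to each linear signal its difference was 0.97, which ended the call. Lrp4, the partner that binds agrin directly and named after its values were seen, differed by 0.11, and Agrn itself by 0.03. Some further genes of this list are named after their values were seen, from both sides. In the same pair dystroglycan (Dag1) differed by -0.03, integrin beta 1 (Itgb1) by -0.18, integrin alpha 6 (Itga6) by -0.21 and integrin alpha 3 (Itga3) by -0.62. Integrin alpha 7 (Itga7) and integrin beta 4 (Itgb4) did not differ. Itga1, Sdc1 and Sspn were higher, by 0.24, 0.71 and 0.84. In Tgfbr2 cKO minus wild type 8 receptor genes were higher and 6 lower, the median was 0 and 0 were called, against 0.0339% of all genes tested.

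Among 22 further proteins of the basement membrane and its interface, 14 reached the level filter, and 0 differed at least 2-fold in any pair. The share of all genes tested was 0.0339% for Tgfbr2 cKO minus wild type. It was 3.4% for Tgfbr2/Smad4 cKO minus wild type and 3.57% between both knockout arrays, so 0 of 14 is near these shares. In Tgfbr2/Smad4 cKO minus wild type 8 were higher, 4 lower and the median was 0.10. In Tgfbr2 cKO minus wild type 5 were higher, 4 lower and the median was 0. Smoc2, a SPARC-related matrix protein gene, had levels of 7.01, 7.08 and 7.76. Tinagl1, which encodes a matricellular protein of basement membranes, had levels of 11.80, 11.76 and 12.15, following the order of the arrays seen for Lamb2 and Lamc1.

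**Figure D4:**
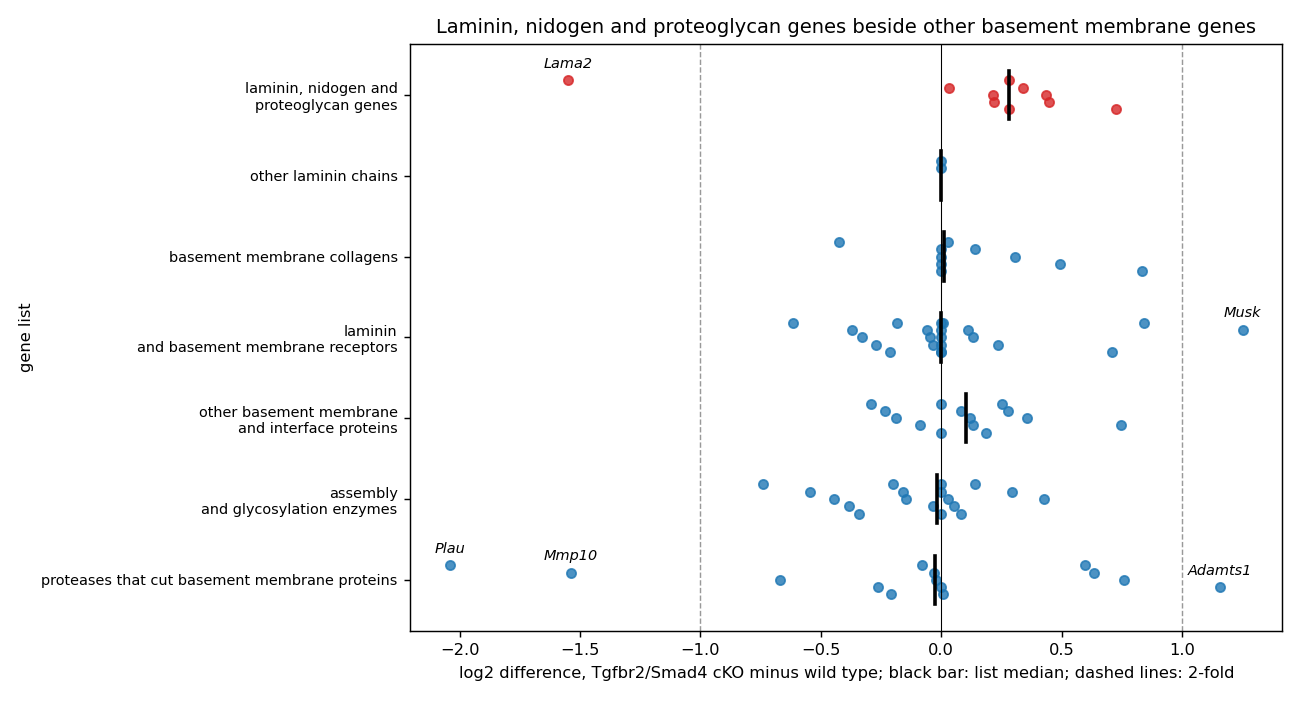
Log2 difference of Tgfbr2/Smad4 cKO minus wild type for the 10 genes (red) and for 6 lists of other basement membrane genes (blue), 1 point per gene at or above the level filter, with black bars at list medians and dashed lines at 2-fold. The median of the 10 genes is 0.28 and those of the other lists shown lie between -0.03 and 0.10, the fibroblast markers, with a median of 0.19, are not drawn, and the genes beyond 2-fold are named.

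The arrays were checked against their labels and for other cell types. Column medians differed by at most 0.00413. Tgfbr2 had levels of 10.25, 10.25 and 10.29 and Smad4 of 11.06, 11.06 and 11.04. The probes cover whole transcripts and the deleted exons cannot be read apart, so these values check nothing about the labels. Bmp7, named in the study's title, was at 6.45 in all 3, below the filter. All 10 fibroblast markers were at or above the median signal in each array. Against 3.4% of all genes tested, 3 of these markers differed at least 2-fold between Tgfbr2/Smad4 cKO and wild type. Thy1, a surface marker of many fibroblasts, had levels of 10.52, 10.35 and 8.16, lowest in the same array as Lama2. Pdgfra, the PDGF receptor alpha gene, was higher there at 9.73, 10.14 and 11.13, and Lum, the gene of the matrix proteoglycan lumican, at 10.14, 10.21 and 11.35. In this pair 8 of the 10 fibroblast markers were higher, 2 were lower and their median was 0.19, beside 9 higher, 1 lower and 0.28 for the laminin, nidogen and proteoglycan genes. Of 10 squamous epithelial markers 1, Dsp, reached it, as did 1 of 8 endothelial markers and 1 of 4 Schwann cell markers with a value, and the epithelial keratin genes Krt5 and Krt14 lay at 5.69 and 6.54 in each array. The Tgfbr2/Smad4 cKO line also had a different sex pattern, with Xist at 5.33, 5.35 and 9.44 and the Y-linked Eif2s3y at 10.12, 10.00 and 5.01. Sex, genotype and line therefore cannot be told apart where this line is compared, and beside Tgfbr2 cKO neither can tissue of origin.

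Other marker groups also differed between the Tgfbr2/Smad4 cKO array and wild type, and some of them differed in the Tgfbr2 cKO array too. Of 7 smooth muscle and pericyte markers at the level filter, 5 were lower and 4 at least 2-fold lower in Tgfbr2/Smad4 cKO than in wild type, among them Myh11 at 12.33, 12.36 and 8.96. The log2 of the summed signal of all 8 was 14.93, 15.01 and 12.64, and Rgs5, a pericyte marker, was at 5.38 in each. Of 6 skeletal muscle markers 4 were at the filter. Of these, 1 was lower, 1 higher and 2 equal in Tgfbr2/Smad4 cKO minus wild type, with a median of 0. Acta1 was the lower, at 12.28, 12.65 and 9.94. Myog was the higher, at 6.50, 6.38 and 6.64, and passed the filter only through the last array. Myod1 was at 6.72 in each. The log2 of the sum of all 6 was 12.39, 12.73 and 10.44, and most of that signal was Acta1 in each array. Of 9 proliferation genes with a value, a list added after earlier results were known, 9 were lower in Tgfbr2/Smad4 cKO than in wild type, 8 of them at least 2-fold, with a log2 sum of 12.75, 12.51 and 11.04. Over all genes tested 2.18% were at least 2-fold lower in Tgfbr2/Smad4 cKO than in wild type. All 9 proliferation genes were also lower in Tgfbr2 cKO than in wild type, with a median of -0.24. Mesothelial and adipocyte markers had log2 sums of 10.79, 10.59 and 10.01, with 6 of 7 lower in Tgfbr2/Smad4 cKO and 4 lower and 2 higher in Tgfbr2 cKO, where their median was -0.37. Leukocyte markers had log2 sums of 9.46, 10.07 and 8.91, with both at the filter higher in Tgfbr2 cKO and lower in Tgfbr2/Smad4 cKO than in wild type, and with Ptprc at 5.23 in each array. The part of these groups in the differences of the laminin genes was not tested, and fewer cells of a type cannot be told apart from less RNA per cell.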

How the data were processed

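The data were 1 table of 35556 probe sets by 3 arrays, with 0 further columns. These deposited values, from 2.82 to 15.6, were read as log2 signals from their range. Values are per transcript, per the labels' protocols, and how the scans were background-corrected and normalized, and with which software, is not given in the sources used here. Arrays were used as deposited. In 40.4% of probe sets the values were equal in all 3 arrays, which can hide small differences. Probe sets with 1 symbol in the platform annotation (21789, with 1621 of several and 12146 unlisted) were named, updating 21698 through a RefSeq table, and averaged per gene. Members and lists were chosen with earlier results of these data known. The genes named from the other lists were those at least 2-fold different in any pair or, in a list with none, the 2 with the largest difference of Tgfbr2/Smad4 cKO minus wild type; the few others are marked where named. Of the 24 assembly and glycosylation genes listed, 18 had a value. Precision is limited by the number of arrays. Alternatives were other normalizations, filters, an offset, a 1.5-fold rule and the probe set with the highest mean. The steps were run on simulated data with planted differences above the 2-fold rule and without the exactly equal values of these arrays. That run checks the calculation only and says nothing about the precision of these values. Python 3.11.15, numpy 2.4.6, pandas 2.3.3, matplotlib 3.10.9, R 4.3.3 and limma 3.58.1 were used.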

Additional observations from a re-analysis of the deposited data

How the results depend on the processing

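With 1 array per line no difference has a replicate check, and the processing before deposit is unknown. A value counted as moved if it shifted by 0.0951 or more, the SD of Tgfbr2 cKO minus wild type over genes. This SD is a yardstick only and does not measure a replicate spread. It holds any differences of genotype and tissue, and 55.1% of the genes behind it had exactly equal values. Of 150 values of single members under centring, quantile or cyclic loess normalization, the highest probe set or an offset of 32, 148 did not move. The other 2 were Lama2 with the offset, at -1.45 against wild type and -1.54 against Tgfbr2 cKO. Nid1 in Tgfbr2 cKO minus wild type was the 1 value to change sign, to -0.004 with quantile normalization. With a size rule of 1.5-fold the members called were 1 between Tgfbr2 cKO and wild type, 2 between the Tgfbr2/Smad4 cKO array and wild type and 2 between both knockout arrays. Of 80 other basement membrane genes at the level filter, 14 and 14 were then called in the last 2 pairs (17.5% each, against 8.44% and 9.01% of all genes tested), in place of 4 and 6 at 2-fold (5% and 7.5%, against 3.4% and 3.57%). They were 2 and 3 when the level filter was set at the 75th percentile, which left 46 genes (4.35% and 6.52%). The all-gene share at that filter was not computed. With the offset they were 3 and 4 (3.75% and 5%), as Musk (0.97 and 0.93) and Ctss (-0.78) fell under 2-fold. Over all genes 332 and 351 were then at least 2-fold different, in place of 401 and 422. Without genes holding equal values, an alternative chosen after the data were seen, Agrn dropped out. No paired analysis was possible because each group has 1 array.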

Other observations

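Enzymes and proteases that act on the basement membrane were on the lists but apart from the comparisons above. Of 18 assembly and glycosylation enzyme genes, all at the level filter, 6 were higher and 9 lower in Tgfbr2/Smad4 cKO than in wild type, with a median of -0.02. P4ha2, a collagen prolyl hydroxylase gene, had levels of 10.46, 10.84 and 9.72, in the order used above. Its difference of -1.11 between the last 2 was the 1 at least 2-fold in this list, against 3.57% of all genes tested.

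Of 16 protease genes, 14 were at the level filter, and in Tgfbr2/Smad4 cKO minus wild type 5 were higher and 8 lower. Adamts1 was called on the higher side and Plau and Mmp10 on the lower, against 3.4% of all genes tested called in this pair. Plau, the gene of urokinase, which activates plasminogen, had levels of 10.85, 11.01 and 8.81. Mmp10, a stromelysin gene, had levels of 8.14, 8.69 and 6.60, the last below the median signal, and Mmp3, the related stromelysin gene, 8.04, 9.35 and 8.80. With a difference of 1.31, Mmp3 was the 1 gene called in Tgfbr2 cKO minus wild type among the 80 genes of the other lists (1.25%). Over all genes tested the share in that pair was 0.0339%. Ctss, a cathepsin gene, had levels of 6.77, 7.14 and 6.10, and its difference of -1.04 between the last 2 was -0.78 with 32 added to each linear signal. Adamts1, which encodes a protease of matrix proteoglycans, had levels of 11.97, 11.76 and 13.13. Lama2 had the same order over the 3 arrays as Plau, Mmp10, Ctss and P4ha2, and Lama5 the same order as Adamts1. Many genes share an order over 3 arrays. Of all genes tested 30.6% were lowest and 28.3% highest in Tgfbr2/Smad4 cKO, so these matches describe values only.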
